A study of Mus musculus with 12 samples.

Results

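AP-1 is the name for a family of dimeric transcription factors, and 9 of its genes, Fos, Fosb, Fosl2, Jun, Junb, Jund, Atf3, Maff and Batf, are described here across 12 arrays. The members were taken as every probe set that the platform annotation pairs with 1 of these 9 genes alone, which gave 12 of the 45101 probe sets of the array. Fosl2, Jun and Jund have 2 probe sets each and the other 6 genes have 1. The 9 genes were proposed after earlier results of these data were known, in which Fos, Fosb, Jun and Atf3 were far lower in FoxO-deficient than in wild-type myeloid progenitors. The values in myeloid progenitors, and every comparison that uses those arrays, are therefore given for the members as a description, without a p-value.

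The study asked how loss of FoxO1, FoxO3 and FoxO4 changes gene expression in mouse bone marrow. There were 4 groups of 3 Affymetrix whole-genome mouse arrays: wild-type LSK cells (arrays 1 to 3), FoxO-deficient LSK cells (4 to 6), wild-type myeloid progenitors (7 to 9) and FoxO-deficient myeloid progenitors (10 to 12). LSK cells lack lineage markers and carry both Sca-1 and Kit, and this marrow fraction holds the hematopoietic stem cells. Myeloid progenitors are their more restricted descendants. All mice carried floxed alleles of the 3 FoxO genes, and only the deficient groups carried Mx-Cre, a recombinase transgene under an interferon-inducible promoter. What is called a FoxO effect below therefore includes any effect of that transgene. Cells came from pooled mice, the labels used here name no age, strain or inducing treatment, and they leave unstated whether each array had its own pool of mice. The p-values therefore reflect spread among arrays alone, and some or all of it may be technical.

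AP-1 proteins bind DNA as pairs joined by a leucine zipper. Jun proteins pair with each other or with Fos proteins, Fos proteins need a Jun partner, and Atf3, Maff and Batf are relatives with the same zipper fold that lack much of the activating sequence of Fos and Jun and often act as repressors or modifiers. Fos, Fosb, Jun, Junb and Atf3 are immediate-early genes, silent or low in resting cells and switched on within minutes by growth factors, stress or handling through MAP kinases. Jund is known as a more steadily expressed member. In blood cells AP-1 genes take part in proliferation, myeloid differentiation and responses to injury.

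The bases just before the start of transcription are shown for 7 of the genes because they are where CREB and ATF proteins, TATA-binding protein and AP-1 itself can act. Each line holds the 150 bases before the RefSeq start in mouse build GRCm38.p6, in the direction of the gene, and Maff is shown at the second of its 3 annotated starts. Capitals mark matches to TGACG (the core of the cyclic AMP response element, CRE), TGACATCA (the form of the AP-1 element known from the Jun promoter), TATAAA and GTAAACA, which forkhead factors such as FoxO bind. The first 2 and the last were searched on both strands and TATAAA on the strand of the gene.
Fos (chr12:85473740-85473889, plus strand): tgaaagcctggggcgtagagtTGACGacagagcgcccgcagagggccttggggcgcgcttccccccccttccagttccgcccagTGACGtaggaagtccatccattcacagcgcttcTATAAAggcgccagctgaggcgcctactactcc
Fosb (chr7:19310046-19310195, minus strand): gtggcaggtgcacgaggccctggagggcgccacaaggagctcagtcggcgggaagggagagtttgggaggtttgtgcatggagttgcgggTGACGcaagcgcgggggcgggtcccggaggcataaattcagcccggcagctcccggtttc
Jun (chr4:95052223-95052372, minus strand): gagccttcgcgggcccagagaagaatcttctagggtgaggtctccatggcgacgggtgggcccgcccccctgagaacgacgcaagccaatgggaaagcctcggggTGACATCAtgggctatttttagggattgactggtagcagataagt
Junb (chr8:84978749-84978898, minus strand): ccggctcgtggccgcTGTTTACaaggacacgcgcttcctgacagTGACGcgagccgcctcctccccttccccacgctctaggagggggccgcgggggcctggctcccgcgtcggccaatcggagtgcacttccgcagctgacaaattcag
Atf3 (chr1:191183334-191183483, minus strand): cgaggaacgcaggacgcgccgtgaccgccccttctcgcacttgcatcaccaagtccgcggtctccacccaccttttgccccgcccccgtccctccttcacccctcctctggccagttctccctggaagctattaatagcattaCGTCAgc
Maff (chr15:79347370-79347519, plus strand): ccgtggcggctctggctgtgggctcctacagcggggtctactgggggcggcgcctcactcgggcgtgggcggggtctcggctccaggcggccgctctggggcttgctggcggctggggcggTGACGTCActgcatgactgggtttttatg
Fosl2 (chr5:32136322-32136471, plus strand): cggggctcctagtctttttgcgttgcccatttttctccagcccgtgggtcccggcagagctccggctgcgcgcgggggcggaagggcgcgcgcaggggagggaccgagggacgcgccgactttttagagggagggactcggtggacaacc
Fos holds TGACG with its first base 129 and 66 bases before the start, and TATAAA at 33. Jun holds TGACATCA 45 bases before its start, and Maff holds the same letters before another of its starts. The forkhead letters were found in Junb alone among the 9 genes, on the opposite strand, 135 to 129 bases before the start. Fosl2 and Jund had none of these letters in this window. Maff at its second start holds the whole element TGACGTCA, in which the core occurs on both strands and overlaps itself. At least 1 TGACG was present at a start of 6 genes, Fos, Fosb, Junb, Atf3, Maff and Batf, against 15.0% of 27025 genes in the same table. The shares of all genes with a match were 2.71% for TGACATCA, 5.75% for TATAAA, 2.01% for GTAAACA and 1.58% for TGACGTCA. TGACTCA, the classical AP-1 element, was in none of the member windows and in 3.32% of genes. A match is a description of the letters and not evidence of binding.

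Intensities below are normalized intensities, that is the antilog of quantile-normalized log2(intensity + 0.6), and they compare arrays within a probe set, not probe sets with each other. The background limit of an array was the brightest of 27 control probe sets for bacterial transcripts, between 5.14 and 13.0. On the brightest probe set of each gene, Foxo4 fell in both LSK cells and myeloid progenitors (log2 change -2.20 ± 0.19 and -2.46 ± 0.19, standard error, limma, adjusted p = 0.00162 and 1.14e-04). Foxo1 (-1.94 ± 0.58 and -0.90 ± 0.58) and Foxo3 (0.22 ± 0.15 and 0.38 ± 0.15) did not pass the test. Results for their other probe sets are not given here. The part of each gene that was deleted is not stated in the sources used here. Array 2, of wild-type LSK cells, stood apart. Its 3′ over 5′ signal ratio was 344 for Gapdh, against 1.77 to 2.37 on the other arrays, and its effect on the calls is given with each comparison of wild-type LSK cells. Fewer cells of a type and less RNA per cell cannot be told apart in such bulk samples.

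Fos, the founding member, was high in every group but 1. It read 3866, 4677 and 4001 in wild-type LSK cells, 4236, 4269 and 4370 in deficient LSK cells, and 3308, 2712 and 3066 in wild-type myeloid progenitors. In FoxO-deficient myeloid progenitors it read 99.6, 116 and 153. The LSK groups overlapped each other, wild-type myeloid progenitors lay just below both, and the deficient myeloid progenitors lay far below all other arrays. The change in myeloid progenitors was 25.0-fold lower (log2 change -4.64 ± 0.18), and all 3 deficient arrays stayed above background.

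Fosb, a close relative of Fos with the same partners, read 1816, 1120.3 and 1743 in wild-type LSK cells and 1677, 1843 and 1892 in deficient LSK cells. It read 683, 664 and 644 in wild-type myeloid progenitors and 1.09, 7.05 and 1.99 in deficient ones. No deficient myeloid progenitor array exceeded its background limit, so the gene was at least 71.6-fold lower. This was the lowest log2 change among the 13732 genes tested (-8.06 ± 0.54), a value that depends on how background is treated and is no measured fold.

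Fosl2, also called Fra-2, gave a different pattern on its brighter probe set. It read 1914, 1784 and 2057 in wild-type LSK cells, 2427, 2537 and 2510 in deficient LSK cells, 436, 504 and 464 in wild-type myeloid progenitors and 372, 492 and 411 in deficient ones. The 2 myeloid progenitor groups overlapped, with a 1.11-fold difference (log2 change -0.15 ± 0.15), while both lay well below the LSK groups. The dimmer probe set lay near background, at 9.78, 12.9 and 9.43 in wild-type and 2.24, 5.89 and 2.45 in deficient myeloid progenitors, and at 10.5, 32.7 and 16.8, then 17.7, 8.10 and 9.56 in the LSK groups. On that probe set the deficient myeloid progenitors were at least 1.14-fold lower, with wild-type arrays above background on 1 of 3. With both probe sets averaged, the log2 change of Fosl2 in myeloid progenitors was -0.94 and did not pass the threshold.

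**Figure D1:**
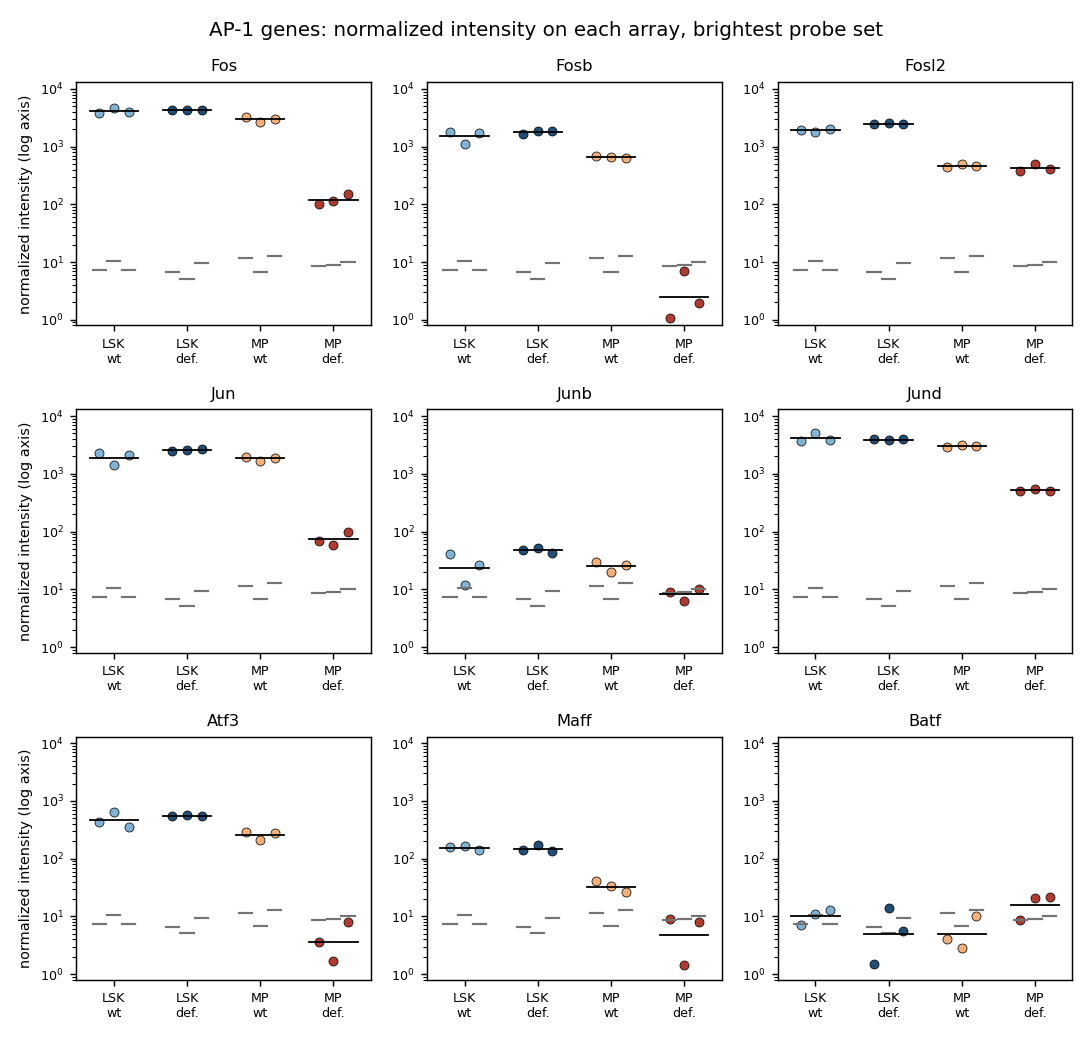
Normalized intensity (log axis) of the brightest probe set of each of the 9 genes on each of 12 arrays, by group (LSK or MP, myeloid progenitors; wt, wild type; def., FoxO-deficient). Points are arrays, black lines the geometric mean of 3 arrays and grey dashes the background limit of each array. Fos, Fosb, Jun, Jund and Atf3 are lowest in the last group with no overlap, Fosl2 steps down between cell types, and Batf lies near the background limit throughout.

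Jun, the founding partner of Fos, followed the pattern of Fos. Its brighter probe set read 2267, 1427 and 2140.2 in wild-type LSK cells, 2447, 2574 and 2740 in deficient LSK cells, 1989.7, 1678 and 1900.2 in wild-type myeloid progenitors and 68.7, 59.6 and 100.1 in deficient myeloid progenitors. The lowest wild-type LSK value was that of array 2, and without it the other wild-type LSK arrays exceeded all those of wild-type myeloid progenitors. The change in myeloid progenitors was 24.9-fold lower (log2 change -4.64 ± 0.24). The second probe set read 1049.9, 874 and 987, then 929, 939 and 966 in LSK cells, 613, 696 and 635 in wild-type and 8.45, 18.2 and 15.3 in deficient myeloid progenitors, 48.6-fold lower. Both probe sets thus put Jun lowest in the same group, although array 10 was not above background on the second.

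Junb, which pairs with Fos proteins but activates less strongly than Jun, lay far dimmer on its only probe set. It read 41.1, 11.8 and 26.0 in wild-type LSK cells, 48.4, 52.3 and 42.8 in deficient LSK cells, 29.6, 19.7 and 26.6 in wild-type and 8.91, 6.19 and 10.2 in deficient myeloid progenitors. The deficient myeloid progenitor arrays were the lowest of all 12, and 2 of 3 exceeded background by little. The difference in myeloid progenitors was 3.02-fold (log2 change -1.59 ± 0.40) and did not pass the threshold, though it did without array 2 (log2 change -1.61 ± 0.25). Junb also passed without array 1, with array weights, with the 60th percentile filter and with only the groups compared.

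Jund, the Jun protein known for steady expression, had a smaller difference than Fos and Jun. Its brighter probe set read 3736, 5149.6 and 3907 in wild-type LSK cells, 3977, 3823 and 3960.5 in deficient LSK cells, 2966, 3176 and 2983 in wild-type and 505, 535 and 506 in deficient myeloid progenitors. The 3 deficient arrays agreed closely, and none overlapped another group. The difference in myeloid progenitors was 5.90-fold (log2 change -2.56 ± 0.15). The second probe set did not show it: it lay between 9.05 and 15.0 on all 12 arrays, near background, and its log2 change was -0.07 ± 0.23.

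**Figure D2:**
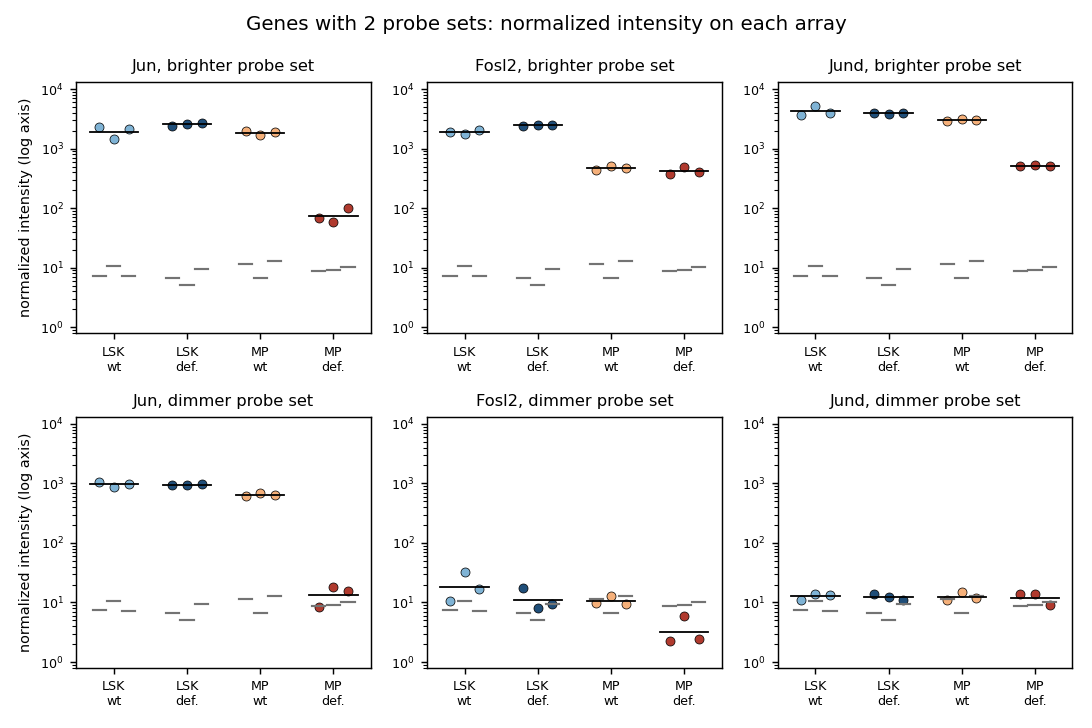
Normalized intensity (log axis) on each array for the brighter (top) and dimmer (bottom) probe set of Jun, Fosl2 and Jund. Symbols and groups are as in the plot of all 9 genes. Both Jun probe sets drop in FoxO-deficient myeloid progenitors, whereas the dimmer Jund probe set stays between 9.05 and 15.0 on all arrays.

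Atf3, a stress-induced repressor and partner of Jun, read 441, 647 and 348 in wild-type LSK cells, 541, 567 and 557 in deficient LSK cells and 285, 213 and 276 in wild-type myeloid progenitors. In deficient myeloid progenitors it read 3.56, 1.66 and 8.02, not above background on any array. The gene was therefore at least 27.6-fold lower there (log2 change -6.14 ± 0.47 in the fit).

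Maff, a small Maf protein without an activating domain, read 159, 165 and 140.3 in wild-type LSK cells and 144, 173 and 133 in deficient ones. It read 41.2, 33.2 and 26.0 in wild-type and 9.01, 1.44 and 8.02 in deficient myeloid progenitors. Unlike for Fos, the levels in wild-type myeloid progenitors were already far below those of LSK cells. Only array 10 of the deficient group exceeded background, so no fold is given (log2 change -2.81 ± 0.58).

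Batf, a partner of Jun best known from lymphocytes, was near background in all groups. It read 7.23, 11.0 and 13.0 in wild-type LSK cells, 1.51, 14.0 and 5.63 in deficient LSK cells, 4.12, 2.86 and 10.3 in wild-type and 8.74, 20.8 and 21.4 in deficient myeloid progenitors. All neighbouring groups in the order of levels overlapped. The deficient myeloid progenitors were at least 1.57-fold higher than the wild-type ones, none of which exceeded background, and the difference did not pass (log2 change 1.67 ± 0.77).

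In LSK cells none of the 9 genes passed the test for a FoxO effect (limma on all 12 arrays, Benjamini-Hochberg adjustment over 13732 genes), where 0.269% of all genes did (0.124% higher), and 2 of the 9 had an unadjusted p under 0.05. These were Fosl2, 1.30-fold higher in deficient cells (log2 change 0.38 ± 0.15, adjusted p = 0.399), and Junb, 2.05-fold higher (1.04 ± 0.40, adjusted p = 0.384). The share of all genes with an unadjusted p under 0.05 was not counted, here or for the lists below. For Fos the log2 change was 0.04 ± 0.18 (adjusted p = 0.930), with a 95% interval from -0.37 to 0.45. For Jund it was -0.11 ± 0.15 (interval from -0.45 to 0.24) and for Jun 0.44 ± 0.24 (interval from -0.09 to 0.97), with adjusted p = 0.779 and 0.506. The intervals were wide for Fosb (-0.97 to 1.45), Atf3 (-0.80 to 1.32), Maff (-1.34 to 1.25) and Batf (-2.76 to 0.69), with adjusted p between 0.598 and 0.975.

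The deficient LSK arrays of Fosl2, Jun and Junb lay above all wild-type LSK arrays, as did those of 7.77% of all genes. No member lay wholly below, as 9.06% of all genes did. Without array 2 the deficient LSK arrays of 5 genes, Fos, Fosl2, Jun, Junb and Atf3, lay above all wild-type LSK arrays. Those of 16.2% of all genes did so too. The adjusted p of the 9 genes then lay between 0.274 and 1.00 (limma), where 0.989% of all genes passed. The log2 change of Junb moved from 1.04 to 0.55 without that array and that of Jun from 0.44 to 0.23. The second probe set of Jun and that of Fosl2 had the opposite sign in LSK cells (-0.03 ± 0.26 and -0.69 ± 0.50).

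**Figure D3:**
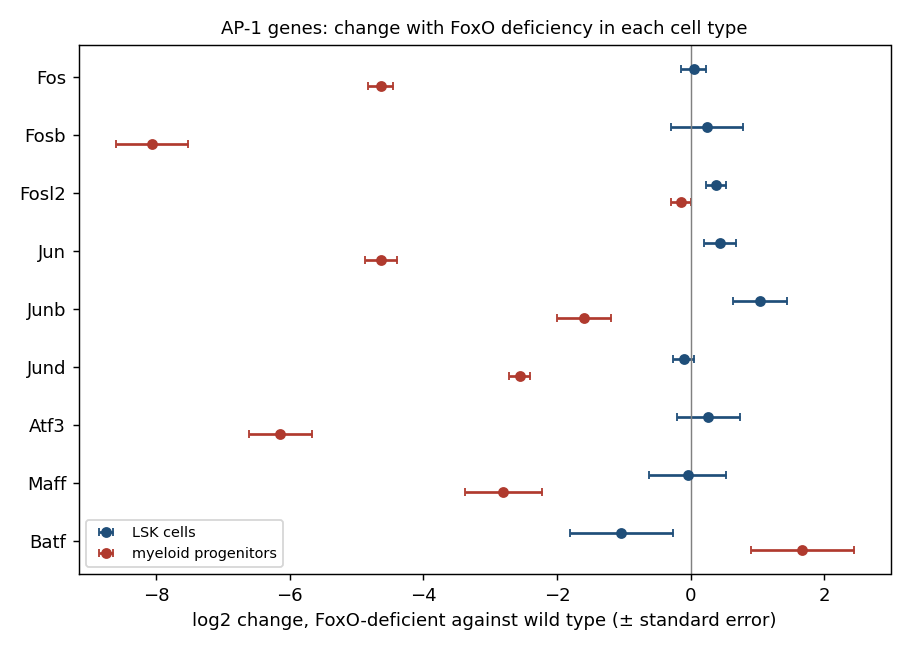
Log2 change (horizontal axis, ± standard error, 3 arrays per group) of FoxO-deficient against wild-type cells for the brightest probe set of each of the 9 genes, in LSK cells (blue) and myeloid progenitors (red). The LSK points lie between -1.04 and 1.04, and the myeloid progenitor points reach -8.06 for Fosb.

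In myeloid progenitors 6 of the 9 genes passed the same threshold, all lower in deficient cells: Fos, Fosb, Jun, Jund, Atf3 and Maff. Of all genes 1.84% passed, 1.09% as lower and 0.757% as higher, but the members were chosen on this comparison and the count supports nothing. The median log2 change of the 9 genes was -2.81, beside 0.04 over all genes tested. Maff did not pass with no filter on dim probe sets, with no normalization, with only the groups compared, or without any 1 of arrays 1, 3 to 9 and 12. Fos, Fosb, Jun, Jund and Atf3 passed in all of these. Junb lay apart from wild type without passing in the main setting, and Fosl2 and Batf overlapped wild type. The deficient arrays thus lay wholly below wild type for 7 of the 9 genes, as for 12.6% of all genes. Without array 2, Junb made 7 genes past the threshold, where 8.88% of all genes passed.

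The FoxO effect in myeloid progenitors minus that in LSK cells was -4.68 ± 0.26 for Fos, -5.08 ± 0.33 for Jun, -8.30 ± 0.77 for Fosb, -6.40 ± 0.67 for Atf3 and -2.45 ± 0.22 for Jund on the log2 scale, and these 5 passed, as did 0.859% of all genes (0.568% lower and 0.291% higher). Over all genes this was 40 higher and 78 lower, 17 and 55 with median scaling, and 6 and 42 with no normalization. It was -2.63 ± 0.57 for Junb, -2.76 ± 0.82 for Maff, -0.53 ± 0.21 for Fosl2 and 2.70 ± 1.09 for Batf, which did not. Without array 2, Junb passed as a sixth gene (-2.15 ± 0.38), where 3.51% of all genes passed, and the first 5 genes then had -4.72 for Fos, -4.83 for Jun, -8.09 for Fosb, -6.66 for Atf3 and -2.56 for Jund. Junb also passed without array 1, with array weights and with the 60th percentile filter, and Maff passed without array 11.

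Between cell types in wild-type mice, Fosl2 and Maff were lower in myeloid progenitors than in LSK cells, by 4.10-fold (log2 change -2.03 ± 0.15) and 4.68-fold (-2.23 ± 0.58). These 2 passed and the other 7 did not, where 21.4% of all genes passed, 11.5% as lower and 9.95% as higher. Over all genes these were 1367 higher and 1575 lower, which turned to 2178 and 1209 with median scaling. Fosb differed 2.30-fold, Atf3 1.81-fold, Jund 1.39-fold and Fos 1.38-fold, in each case with no overlap between the groups. Jun differed 1.03-fold with overlap on its brighter probe set, an overlap that was absent without array 2 (log2 change -0.25 ± 0.20). The second probe set of Jun was lower with no overlap (log2 change -0.58 ± 0.26) and did not pass. With Fosl2 and Maff, 6 genes lay wholly below the LSK arrays on their brightest probe sets, as did 17.6% of all genes. Without array 2, Jund passed too (log2 change -0.33 ± 0.08), making 3 members, where 34.9% of all genes passed. Fosl2 and Maff then had -2.05 ± 0.13 and -2.18 ± 0.69, and Junb, which did not pass, changed sign from 0.10 to -0.39. Jund also passed without array 1, with array weights and with the 60th percentile filter, and Fosb passed without array 11. The number past the threshold was 5 with an offset of 16 and 6 with an offset of 32 before the logarithm. It was 1, Fosl2 alone, without wild-type myeloid progenitor array 8 or 9. In FoxO-deficient mice 8 of the 9 genes were lower in myeloid progenitors than in LSK cells, all but Batf, where 19.6% of all genes passed and 9.39% as lower. Over all genes these were 1406 higher and 1289 lower, against 2400 and 1064 with median scaling, and 709 and 988 with no normalization. There Fos differed 35.5-fold, Jun 34.8-fold, Jund 7.60-fold, Fosl2 5.90-fold and Junb 5.77-fold, Fosb and Atf3 at least 194-fold and at least 59.8-fold. The comparisons between cell types share arrays with the FoxO comparisons.

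Of 17 genes listed as other AP-1 dimer partners, 15 were tested, and 2 fell in deficient myeloid progenitors. Mafk, a small Maf like Maff, fell from 222 to 86.1 (log2 change -1.37 ± 0.20, limma, adjusted p = 0.00732), and Ddit3, the stress factor CHOP, fell from 88.8 to 39.7 (-1.16 ± 0.18, adjusted p = 0.00921). The median log2 change of the 15 was -0.05. Without array 2, Atf4 was lower too and Jdp2 higher, making 4 genes called, where 8.88% of all genes passed. With no normalization 0 were called. Jdp2, a repressor of Jun activity, lies between Fos and Batf on chromosome 12, where the end of Fos and the start of Batf are 209 kb apart in GRCm38.p6. Jdp2 read 214 and 299.9 in wild-type and deficient myeloid progenitors and did not pass (adjusted p = 0.462), so the 3 neighbours differed in what they did: Fos was lower, while Jdp2 and Batf had log2 changes of 0.49 and 1.67 that did not pass. Of 15 tested genes of other factors with the same zipper fold (CREB, ATF6 and C/EBP types), none passed in myeloid progenitors with limma, and 4 had an unadjusted p under 0.05. Without array 2, 3 of the 15 were called higher, Atf6, Cebpa and Xbp1, where 8.88% of all genes passed in either direction.

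The MAP kinases that switch AP-1 genes on were measured for 22 of 30 listed genes, and none passed in either cell type, with 4 at an unadjusted p under 0.05 in myeloid progenitors and 2 in LSK cells. Their median log2 change in myeloid progenitors was 0.06, and Mapkapk3 and Rps6ka3 were called higher without array 2. Of 11 genes for serum response factor and its cofactors, which drive Fos from its promoter, 0 passed and 0 had an unadjusted p under 0.05 in either cell type (limma), and Mef2c was called lower in myeloid progenitors without array 2. Of 8 tested genes for the turnover of Jun and Fos proteins, 0 passed, with 2 at an unadjusted p under 0.05 in myeloid progenitors and 1 in LSK cells. Without array 2, Ddb1 was called lower in myeloid progenitors. As 8.88% of all genes passed there without array 2, these few calls are not particular to the lists.

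Of 24 genes listed as textbook AP-1 targets, 17 were tested and 3 fell in deficient myeloid progenitors. Ptgs2, the inducible cyclooxygenase, read 139 in wild-type cells and fell at least 15.0-fold (adjusted p = 2.24e-04), Vegfa, an angiogenic growth factor, fell from 120.0 to 47.8 (-1.33 ± 0.17, adjusted p = 0.00351), and the cytokine gene Tnf read 32.7 and 8.56, not above background on 2 of 3 arrays (adjusted p = 0.0102). The other 14 did not pass, among them Ccnd1 at 44.6 and 50.7 and Cd44 at 1459 and 1319, and the list's median log2 change was -0.19. None of the 17 passed in LSK cells with limma, though 6 had an unadjusted p under 0.05.

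Other immediate-early genes also changed in myeloid progenitors: of 26 listed genes, 22 fell and 1 rose, with a median log2 change of -3.01. Those with the smallest adjusted p were Egr1, Zfp36, Nfkbiz, Dusp1, Hspa1b and Egr2, between 4.57e-07 and 1.03e-05. Egr1, a zinc-finger factor induced like Fos, fell from 3309.7 to 228, Zfp36, which destabilises cytokine mRNA, 15.5-fold, and Dusp1, a phosphatase that turns MAP kinases off, from 2418 to 247. Myc, named because it was the only riser, went from 163 to 328 (1.01 ± 0.18, adjusted p = 0.0191). In LSK cells 0 of the 26 passed with limma and 5 had an unadjusted p under 0.05. These lists were drawn up with earlier results of the data known, so none is independent evidence of its direction.

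**Figure D4:**
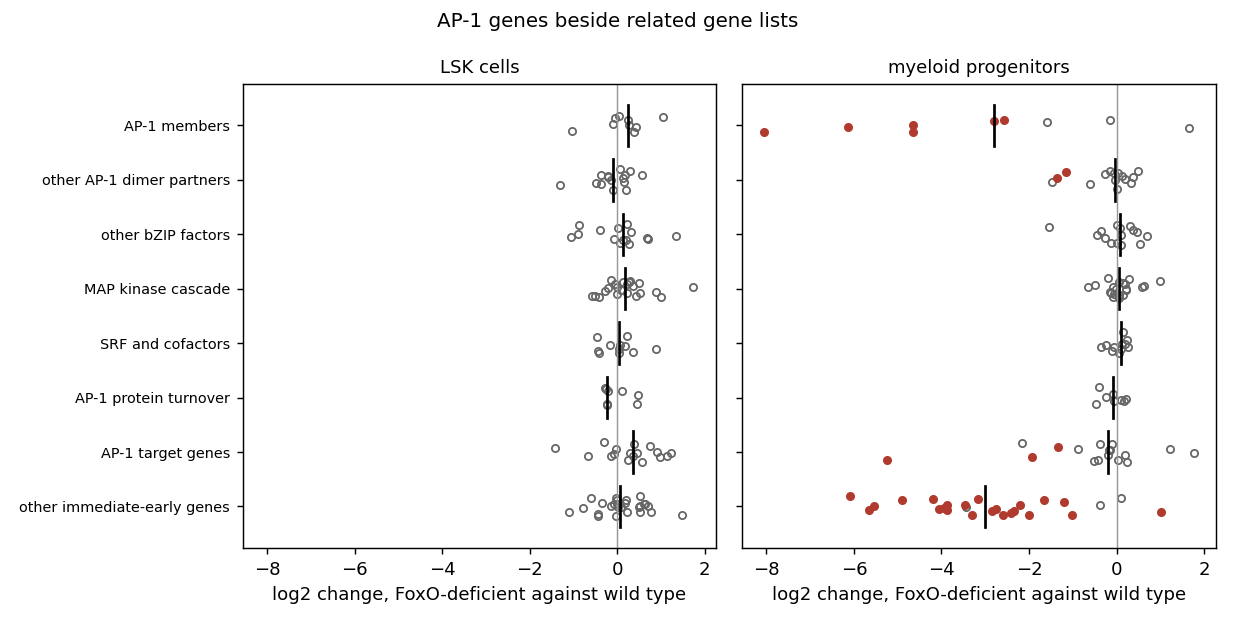
Log2 change of FoxO-deficient against wild-type cells for each tested gene of 8 lists, in LSK cells (left) and myeloid progenitors (right). Filled red points passed an adjusted p of 0.05, open points did not, and black bars are list medians. In myeloid progenitors the bar lies at -2.81 for the AP-1 members and at -3.01 for other immediate-early genes, and at -0.05 for other AP-1 dimer partners.

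The genes whose pattern over the 4 group means was most like that of Fos, by root mean square distance of log2 means centred on each gene's own mean, were Phlda1 (0.30), Ccl4 (0.31), Dusp8 (0.35), Egr1 (0.35) and Sqstm1 (0.38), beside a median of 2.22 over all genes. Phlda1, Ccl4 and Dusp8 were not above background in deficient myeloid progenitors. Among the members Jun lay nearest to Fos at 0.18, then Maff at 0.76, Atf3 at 0.82, Jund at 0.92, Junb at 1.38, Fosl2 at 1.61, Fosb at 1.76 and Batf at 2.75. The values of Fosb and Atf3, and in part that of Maff, are set by levels not above background, so these members have no firm order. Nearest to Jund were Zfand5 (0.08), Scn2b (0.11), Metrnl (0.13), Ier5 (0.14) and Lhx4 (0.15), of which Scn2b, Metrnl and Lhx4 were not above background in deficient myeloid progenitors. Lhx4 was not above it in wild-type myeloid progenitors either. Scn2b exceeded it on 1 of 3 wild-type LSK and 2 of 3 wild-type myeloid progenitor arrays, so Scn2b and Lhx4 lay near background. These distances rest on 4 group means of 12 arrays and are descriptions.

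The labelled cell types were checked against markers. The summed level of 9 myeloid progenitor markers ran from 18951 to 19216 in wild-type and from 21046 to 21666 in deficient myeloid progenitors, and from 3539 to 5413 on all LSK arrays. The summed level of 8 LSK and stem cell markers ran from 5296 to 5485 in wild-type and from 4656 to 4916 in deficient LSK cells. In myeloid progenitors it ran from 761 to 797 in wild-type and from 830 to 883 in deficient cells. Sca-1 itself was not analysed here. Beside the AP-1 difference in myeloid progenitors, 7 monocyte and macrophage markers summed to between 929.9 and 1064 in wild-type and between 709 and 781 in deficient cells, and among them Cd14, a co-receptor for bacterial products, fell from 100.1 to 12.7 (log2 change -2.98 ± 0.23, limma, adjusted p = 1.02e-04). The other 6 did not pass. Csf1r (229 and 144) and Ccr2 (314 and 209) lay lower in deficient cells with no overlap, while Lyz2 (272 and 289), Cd68 (59.6 and 58.5), C1qb (13.8 and 10.9) and Adgre1 (5.90 and 11.0) overlapped. The 7 late neutrophil markers summed to between 4452 and 4583, then 6274 and 6567, and 1 of them, Camp, rose from 93.9 to 164 (adjusted p = 0.0401). Stem cell marker Tek fell from 90.7 to 42.0 (adjusted p = 0.00853). Of the B cell, T and NK cell, megakaryocyte and stromal markers, 3, 5, 4 and 4 were tested in myeloid progenitors and 0 passed with limma, with 1 B cell marker at an unadjusted p under 0.05. Their summed levels in wild-type and deficient myeloid progenitors ran from 101 to 128 and from 181 to 198 for B cells, and from 1692 to 1760 and from 2292 to 2624 for T and NK cells. For megakaryocytes they ran from 368 to 408 and from 247 to 309.8, and for stroma from 36.5 to 43.7 and from 43.1 to 51.8. The groups did not overlap for the first 3 lists and did for stroma. In wild-type and deficient LSK cells the sums ran from 826 to 968 and from 760 to 764 for monocytes and macrophages. For late neutrophils they ran there from 5927 to 8124 and from 8501 to 8742. They ran there from 122 to 312 and from 507 to 593 for B cells. For T and NK cells they ran from 273 to 710 and from 871 to 1105. For megakaryocytes they ran from 161 to 312 and from 326 to 369, and for stroma from 48.2 to 62.3 and from 41.2 to 54.5. The LSK groups overlapped for stroma alone of these lists. In deficient LSK cells 1 stem cell and 1 myeloid progenitor marker passed as lower (limma), and 1 late neutrophil marker as higher. Of the 7 monocyte and macrophage markers 1 passed as lower in deficient LSK cells (limma), where the lowest log2 change of the list was -2.65. In the difference of FoxO effect between cell types 1 of these 7 passed as higher and 1 as lower. The values of that difference ran from -3.26 to 2.06. Between wild-type cell types, 5 of 7 late neutrophil markers passed as lower in myeloid progenitors, and 1 of 5 T and NK markers as higher. The part of these cells in the AP-1 values was not tested.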

How the data were processed

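RNA of sorted mouse bone marrow cells was amplified and labelled in triplicate with a NuGEN kit for Affymetrix whole-genome mouse arrays, per the labels' protocols. The authors deposited linear intensities of 45101 probe sets for each of 12 arrays. Their summarising software was not given in the sources used here. Array medians ran from 8 to 13.5 and means from 119 to 190.2, so the arrays had not been brought to one distribution.

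An offset of 0.6, the 10th percentile of all values, was added, log2 was taken and arrays were quantile normalized. Of the probe sets, 34945 carried 1 gene symbol in the platform annotation. Probe sets above the 40th percentile on at least 3 arrays were kept, and the brightest stood for its gene, which left 13732 genes and all 9 AP-1 genes. Batf and the dimmer probe sets of Fosl2 and Jund passed at levels near background. The model of 4 group means used every array (limma 3.58.1, R 4.3.3, lmFit and eBayes, two-sided, 8 residual degrees of freedom), with a threshold of 0.05 on the Benjamini-Hochberg adjusted p. Where a group exceeded its background limits on no array, a fold is a bound against those limits, and where it did so on 1 of 3 arrays no fold is given. Alternatives are in the closing section. The number of arrays limits precision.

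The members and lists were chosen with earlier results of these data known. Named genes were the 9 members, list genes called in a FoxO comparison, at most 6 a list by adjusted p, and the 5 nearest patterns to Fos and Jund. Genes named without passing, or because they passed without array 2, were chosen after their values were seen. Promoter sequences are from RefSeq (GRCm38.p6), with all 9 genes matched.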

Additional observations from a re-analysis of the deposited data

Results flagged for a closer look

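The FoxO effect differed between the cell types in the interaction term of the fit for 5 of the 9 AP-1 genes, which had been chosen with this difference in view. The effect in myeloid progenitors minus that in LSK cells was -4.68 for Fos, -8.30 for Fosb, -5.08 for Jun, -2.45 for Jund and -6.40 for Atf3 on the log2 scale. With a separate fit of each cell type's arrays no interaction could be fitted. With median scaling, or with kept probe sets averaged, Jund did not pass. The values for Fosb and Atf3 rest on levels below background in FoxO-deficient myeloid progenitors.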

How the results depend on the processing

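Alternatives were offsets of 1, 16 and 32, median scaling, no normalization, no filter or a filter at the 60th percentile, each kept probe set tested alone, the mean of kept probe sets, only the groups compared, array weights, and each array left out. No paired analysis was possible because no array number is shared between groups.

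In LSK cells 0 of the 9 AP-1 genes were called in every alternative, and without any 1 array (range 0 to 0). In myeloid progenitors between 5 and 7 were called, and between 5 and 7 without any 1 array. The difference between cell types called 4 to 6, and 5 to 6 without any 1 array. In deficient cells the contrast of cell types called 8 throughout. In wild-type cells 2 were called, 5 with an offset of 16 and 6 with an offset of 32, and between 1 and 3 without any 1 array. Jund was called there as well with array weights and with the 60th percentile filter. No called change of a member reversed its sign. An offset of 32 brings Fosb in myeloid progenitors to -4.33, since it compresses low values. Over all genes, calls ranged from 0 to 174 in LSK cells (37 here) and from 113 to 1230 in myeloid progenitors (253 here). Without array 2 they were 133 and 1194. In myeloid progenitors 104 genes were higher and 149 lower, which turned to 720 and 474 without array 2, 752 and 478 with array weights, 363 and 281 with only the groups compared, 215 and 192 with the 60th percentile filter, and 201 and 192 or 284 and 223 with offsets of 16 or 32. In wild-type cells the 2942 calls between cell types became 4696 without array 2 (2470 higher and 2226 lower), and ranged from 1100 to 4619 over the other settings. In deficient cells the 2695 became 5160 without array 2 and ranged from 1697 to 5444. The 118 calls for the difference became 472 without array 2 (238 higher and 234 lower) and ranged from 48 to 440. In LSK cells 17 were higher and 20 lower, 75 and 58 without array 2, and 5 and 3 with no normalization. With no normalization the median gene shifted by 0.24 in LSK cells and 0.17 in myeloid progenitors.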
